A study of Mus musculus with 6 samples.

Results

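The LIF receptor and JAK-STAT pathway was followed in *Prdm14*-deficient ES cells through 9 of its genes: the receptor genes *Lifr* and *Il6st*, the kinase genes *Jak1* and *Jak2*, *Stat3*, and the downstream genes *Socs2*, *Socs3*, *Pim1* and *Pim3*. They are 9 of the 8343 genes tested. All probes listed with 1 of their symbols were taken, in an annotation that names only probes detected on at least 1 array. These are 14 of the 45281 on the array. They were read on whole-genome Illumina mouse BeadChips (WG-6) in 3 *Prdm14* knockout and 3 wild-type control samples, each on an array of its own. Both genotypes were ES cells of a C57BL/6 background grown in 2i, a medium with inhibitors of MEK and of glycogen synthase kinase-3. By their labels they differed in *Prdm14*, which encodes a regulator of the germline and of pluripotency. Other differences seen between the samples are given below. By the study's methods, its mutant mice were made from heterozygous ES cells of the EUCOMM repository. The samples of a genotype came from consecutive passages, and neither the labels nor the methods say how many cell lines lay behind each genotype or whether the medium held LIF. The p-values therefore measure the spread between these samples only.

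Leukaemia inhibitory factor (LIF) binds a receptor made of LIFR and gp130, the product of *Il6st*. The receptor-bound Janus kinases, mainly JAK1 in ES cells, phosphorylate STAT3, which enters the nucleus and activates genes of naive pluripotency. STAT3 also activates *Socs3*, whose product blocks the receptor complex in a feedback loop, and the genes of PIM serine/threonine kinases, which favour survival and self-renewal.

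*Prdm14* itself was above background on the 3 wild-type and on none of the knockout arrays, and was at least 6.62-fold lower in the latter (limma, adjusted p = 2.46e-07). All 8 markers of ES cells were above background in both genotypes, and the sum of their normalized signals ran from 49242 to 51539 on wild-type and from 50264 to 52559 on knockout arrays, with *Sox2* and *Utf1* higher in the knockout. *Dppa5a*, the brightest (mean log2 signals of 14.77 and 14.72), weighs most in this sum. A second *Sox2* probe did not pass (limma, adjusted p = 0.254). *Pou5f1* did not pass on its brightest probe (0.36, adjusted p = 0.028) but did on its second (0.60, adjusted p = 0.00321). Of 8 markers each of other cell types, no fibroblast marker, 2 of primitive endoderm and 5 of trophectoderm had a named probe. Of the primitive endoderm markers only *Dab2* was tested, and its fitted rise did not pass (log2 fold change 1.10, limma adjusted p = 0.0586). It was above background on all arrays. Its normalized log2 signals were 6.19, 6.09 and 6.72 on wild-type and 8.21, 7.57 and 6.51 on knockout arrays. A second *Dab2* probe gave 0.83 and did not pass either (adjusted p = 0.106). The sums of the primitive endoderm markers were 111 to 151 on wild-type and 141 to 354 on knockout arrays. *Krt7* and *Krt8* of the trophectoderm list were lower in the knockout. *Cdx2* and *Tfap2c* did not pass on their brightest probes (-0.35 and -0.74, limma adjusted p = 0.212 and 0.0334). A dimmer *Tfap2c* probe passed (-0.94, adjusted p = 0.00822). The sums over the 5 named trophectoderm genes were 2564 to 4152 on wild-type and 1915 to 2483 on knockout arrays. The Y-linked *Eif2s3y* was above background on the 3 knockout arrays and on no wild-type array. It was at least 7.46-fold higher in the knockout (limma, adjusted p = 9.55e-07). *Uty*, also Y-linked, was above background on all arrays of both genotypes and did not pass (log2 fold change 0.31, limma adjusted p = 0.132). Probes of chromosomes 11 and 15, which carry *Stat3* and *Socs3* and *Lifr* and *Pim3* in GRCm38.p6, had a median log2 fold change of -0.13 and -0.17, against 0.033 over all probes. Those of chromosomes 13 and X, which carry *Il6st* and *Pim2*, had medians of 0.134 and 0.135. The part of these differences in the results was not tested, except that the fit was repeated with the median of each chromosome removed. In bulk samples, fewer cells that express a gene and less RNA per cell cannot be told apart.

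Of the 9 genes, *Stat3*, *Pim1* and *Pim3* were lower in *Prdm14*-deficient ES cells, *Jak1* was higher, and *Lifr*, *Il6st*, *Jak2*, *Socs2* and *Socs3* did not pass the test. Each gene is given by its brightest tested probe, and a call is an adjusted p under 0.01 in limma, the threshold of the study's methods, over 14436 probes with a detection p under 0.01 on at least 3 arrays. The 4 calls are 44.4% of the members, where 15.1% of the 8343 tested genes were called, 8.40% lower and 6.69% higher. Of the 4, *Pim1* and *Jak1* passed the detection filter only through the genotype in which they were brighter. The share over all genes was taken under the same filter. The median log2 fold change of the 9 genes was -0.63, against 0.024 over all tested genes. In 7 of the 9 the arrays of the genotypes did not overlap, 5 with the knockout lower and 2 with it higher, against 45.0% of all tested genes (21.5% lower and 23.6% higher). Counted as probes, 11 of the 14 passed the filter, of which 4 were lower and 1 higher, with 13.8% of all tested probes called (7.56% lower and 6.19% higher). In 9 of the 11 the arrays of the genotypes did not overlap, against 42.3% of all tested probes. The 3 others, a second probe each of *Lifr*, *Jak2* and *Pim1*, were above background on at most 1 array of a genotype.

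**Figure D1:**
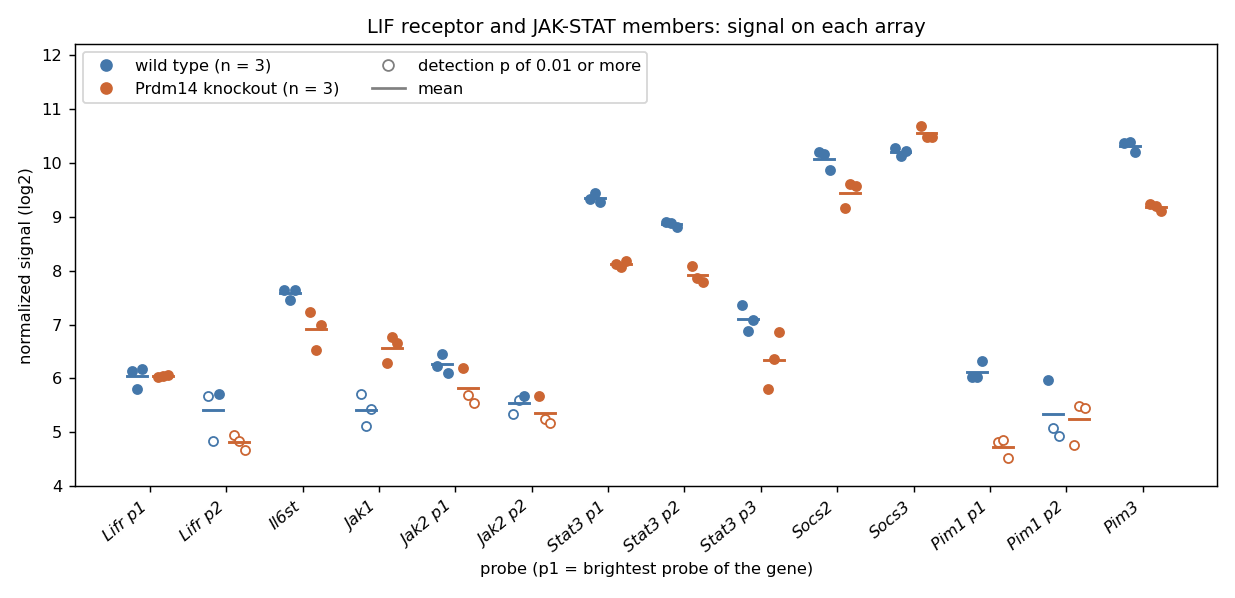
Normalized log2 signal of the 14 member probes (x axis) on each of the 3 wild-type and 3 *Prdm14* knockout arrays. Points are arrays, open where the detection p was 0.01 or more, and lines are means. The 2 brighter *Stat3* probes and that of *Pim3* separate the genotypes by about 1 unit, *Jak1* is open on the wild-type arrays only, and the first *Pim1* probe is open on the knockout arrays only.

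*Stat3*, which encodes the transcription factor that carries the LIF signal, was read by 3 probes, and 2 of them passed the test. On the brightest, the wild-type arrays had normalized log2 signals of 9.33, 9.44 and 9.26 and the knockout arrays of 8.12, 8.07 and 8.19. The lowest wild-type array thus lay well above the highest knockout array, and the log2 fold change (± standard error) was -1.22 ± 0.10, a 2.33-fold difference (limma, adjusted p = 4.06e-05). The second probe gave 8.90, 8.88 and 8.80 in wild-type and 8.09, 7.86 and 7.80 in knockout cells. It followed the first, at -0.94 ± 0.11 (limma, adjusted p = 0.000313). On the third, dimmer probe, for which the annotation lists another *Stat3* transcript, the signals were 7.36, 6.87 and 7.08 in wild-type and 5.80, 6.36 and 6.87 in knockout cells. Here the third knockout array met the second wild-type array almost exactly, and the log2 fold change of -0.76 did not pass the test (SE 0.24, limma adjusted p = 0.0504). It was -1.02 and passed without the third knockout sample (adjusted p = 0.00816), and was -0.48 without the first (adjusted p = 0.113). With the median of chromosome 11 removed, the brightest probe gave -1.09 (adjusted p = 7.67e-05).

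**Figure D2:**
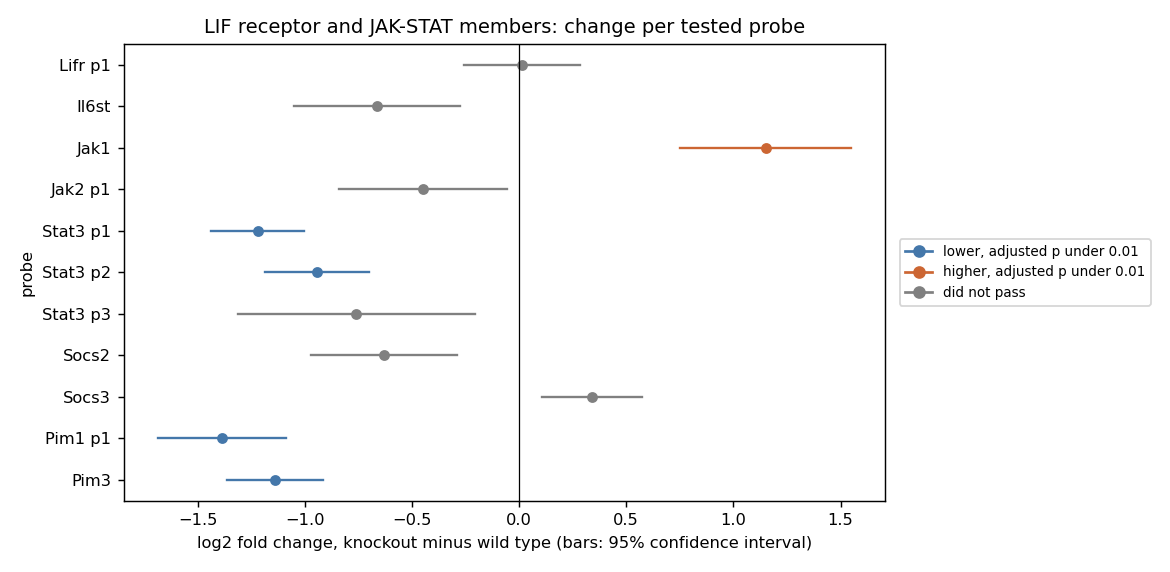
Log2 fold change, knockout minus wild type, of the 11 tested member probes (y axis), with 95% confidence intervals from limma. The 2 brighter *Stat3* probes, *Pim1* and *Pim3* lie below and *Jak1* above 0 at an adjusted p under 0.01.

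Both PIM kinase genes among the 9 were lower in the knockout. *Pim3* had normalized log2 signals of 10.37, 10.38 and 10.20 on the wild-type and of 9.23, 9.20 and 9.11 on the knockout arrays. The genotypes lay apart by far more than the spread within either, and their log2 difference was -1.14 ± 0.10 (limma, adjusted p = 6.97e-05), or -0.97 with the median of chromosome 15 removed (adjusted p = 0.000167). *Pim1* was a dim gene, at 6.02, 6.02 and 6.32 in wild-type cells, all above background, and at 4.82, 4.86 and 4.52 in knockout cells, none above background. It was therefore at least 1.29-fold lower (limma, adjusted p = 0.000115). Its fitted log2 fold change of -1.38 shrank to -0.79 with no background correction, -0.78 with an offset of 50 and -0.37 with the authors' processed values, and the test was passed each time. The minimum folds given for probes at background in 1 genotype hold for the background-corrected signals only. With the authors' processed values the differences of *Pim1*, *Jak1*, *Stat5a*, *Csf3r*, *Ghr*, *Socs5* and *Pim2* were smaller than these minima, that of *Pim1* only slightly. The second *Pim1* probe, not tested, was above background on 1 wild-type array only.

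Of the kinase genes, *Jak1* rose. Its signals were 5.71, 5.13 and 5.43 on the wild-type arrays, none above background, and 6.28, 6.78 and 6.66 on the knockout arrays, all above background. This is at least 1.89-fold higher in the knockout (limma, adjusted p = 0.00159). The fitted log2 fold change of 1.15 was 0.67 with no background correction, 0.75 with an offset of 50 and 0.39 with the authors' processed values, and with every probe on the array in the fit the adjusted p rose to 0.0150, past the threshold. *Jak2*, a kinase that gp130 receptors can also use, was above background on the 3 wild-type arrays, at 6.23, 6.46 and 6.10, and on 1 knockout array, the knockout values being 6.20, 5.69 and 5.55. The genotypes overlapped, and the log2 fold change of -0.45 did not pass the test (95% confidence interval -0.84 to -0.05, adjusted p = 0.0933).

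The receptor genes did not pass the test. *Lifr*, the LIF-specific chain, had signals of 6.14, 5.80 and 6.18 in wild-type and of 6.04, 6.05 and 6.07 in knockout cells. The knockout arrays fell within the wild-type range, and the log2 fold change of 0.014 had a 95% confidence interval of -0.26 to 0.28 (limma, adjusted p = 0.945). The log2 fold change was -0.063 under median scaling and -0.11 without the second wild-type sample. With the median of chromosome 15 removed it was 0.18 (limma, adjusted p = 0.31). *Lifr* was dim, close to the lowest signals detected on an array (5.52 to 5.87), so a fall could hardly have shown. *Il6st*, which encodes the signalling chain shared by the cytokines of the interleukin-6 family, had signals of 7.64, 7.46 and 7.64 in wild-type and of 7.24, 6.52 and 6.99 in knockout cells. Each knockout array lay below each wild-type array, the second knockout sample lowest, and the log2 fold change of -0.66 (95% confidence interval -1.05 to -0.27) missed the threshold (adjusted p = 0.0216). It was -0.35 with the authors' processed values (adjusted p = 0.0121). *Il6st* passed in 8 of 19 alternatives, among them no background correction (adjusted p = 0.00836) and without the first knockout sample (adjusted p = 0.00890).

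The 2 SOCS genes did not pass the test, and their fitted changes had opposite signs. *Socs3*, the feedback inhibitor that binds gp130 and the kinases, had signals of 10.26, 10.13 and 10.21 in wild-type and of 10.68, 10.48 and 10.47 in knockout cells. All knockout arrays lay above all wild-type arrays, by a log2 fold change of 0.34 (95% confidence interval 0.11 to 0.57, adjusted p = 0.0387 from limma). It passed with the authors' processed values (0.32, adjusted p = 0.00860) and with the median of chromosome 11 removed (0.48, adjusted p = 0.00969). *Socs2*, best known as an inhibitor of growth hormone signalling, had signals of 10.20, 10.16 and 9.86 in wild-type and of 9.16, 9.60 and 9.57 in knockout cells. Here the knockout arrays were the lower ones, by a log2 fold change of -0.63 (95% confidence interval -0.97 to -0.29, adjusted p = 0.0149), and *Socs2* passed with no background correction (adjusted p = 0.00377) and with the authors' processed values (-0.56, adjusted p = 0.00376).

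The promoters of the 3 genes that fell and of *Socs3* are shown because these genes encode STAT3 or are known to lie downstream of it. They are RefSeq windows of GRCm38.p6, from 250 bases before to 50 after the start, 5′ to 3′, at chr11:100939491-100939790 (minus strand), chr17:29490535-29490834 (plus strand), chr15:88861944-88862243 (plus strand) and chr11:117969317-117969616 (minus strand). Capitals mark matches to TTCNNNGAA, the palindromic letters of a STAT site, which read alike on both strands.
Stat3: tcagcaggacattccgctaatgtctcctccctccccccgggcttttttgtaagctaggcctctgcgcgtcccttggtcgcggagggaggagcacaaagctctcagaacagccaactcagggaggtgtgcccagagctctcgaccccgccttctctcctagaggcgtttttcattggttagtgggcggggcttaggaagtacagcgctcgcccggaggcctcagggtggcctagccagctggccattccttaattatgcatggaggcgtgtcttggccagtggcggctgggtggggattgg
Pim1: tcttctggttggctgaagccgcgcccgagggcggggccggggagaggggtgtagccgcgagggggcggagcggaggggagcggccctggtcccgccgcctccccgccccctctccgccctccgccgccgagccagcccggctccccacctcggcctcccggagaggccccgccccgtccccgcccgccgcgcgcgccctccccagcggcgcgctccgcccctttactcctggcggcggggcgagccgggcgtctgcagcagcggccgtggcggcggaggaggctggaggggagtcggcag
Pim3: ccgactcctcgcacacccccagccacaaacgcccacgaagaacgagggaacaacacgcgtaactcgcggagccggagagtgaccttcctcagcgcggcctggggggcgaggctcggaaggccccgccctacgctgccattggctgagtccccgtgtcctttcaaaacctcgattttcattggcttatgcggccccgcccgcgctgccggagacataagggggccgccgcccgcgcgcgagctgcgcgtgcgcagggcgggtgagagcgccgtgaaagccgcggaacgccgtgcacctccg
Socs3: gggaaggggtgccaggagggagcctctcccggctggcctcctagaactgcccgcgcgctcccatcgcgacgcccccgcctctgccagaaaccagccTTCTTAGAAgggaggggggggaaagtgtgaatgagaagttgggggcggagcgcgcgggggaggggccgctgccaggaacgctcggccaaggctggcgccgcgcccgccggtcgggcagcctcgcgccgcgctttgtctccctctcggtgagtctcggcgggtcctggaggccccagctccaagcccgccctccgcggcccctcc
Windows were found for 8 of the 9 genes, and *Socs3* was the only one of the 8 with a match, TTCTTAGAA at position -154 from the start. The motif occurred in 8.30% of all 32851 windows and in 9.55% of the 27025 genes with a window. In the wider pathway list, 4 of 43 genes (9.30%) held it, a share close to that of all genes, among them *Cish*, with TTCCTGGAA and TTCTTGGAA. A match is a description of these letters only.

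Other genes of the pathway were taken from a list of 53, of which 32 were tested, 4 were lower, 5 were higher and 23 did not pass. Their median log2 fold change was 0.025. The list's 9 calls therefore ran in both directions, next to the 8.40% of all tested genes that were lower and the 6.69% that were higher. Of the 9, *Csf3r*, *Stat5a*, *Ghr*, *Socs5* and *Pim2* passed the detection filter only through the genotype in which they were brighter. *Lif* itself, *Osmr* and *Stat5b* were among the 21 genes not tested here.

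**Figure D3:**
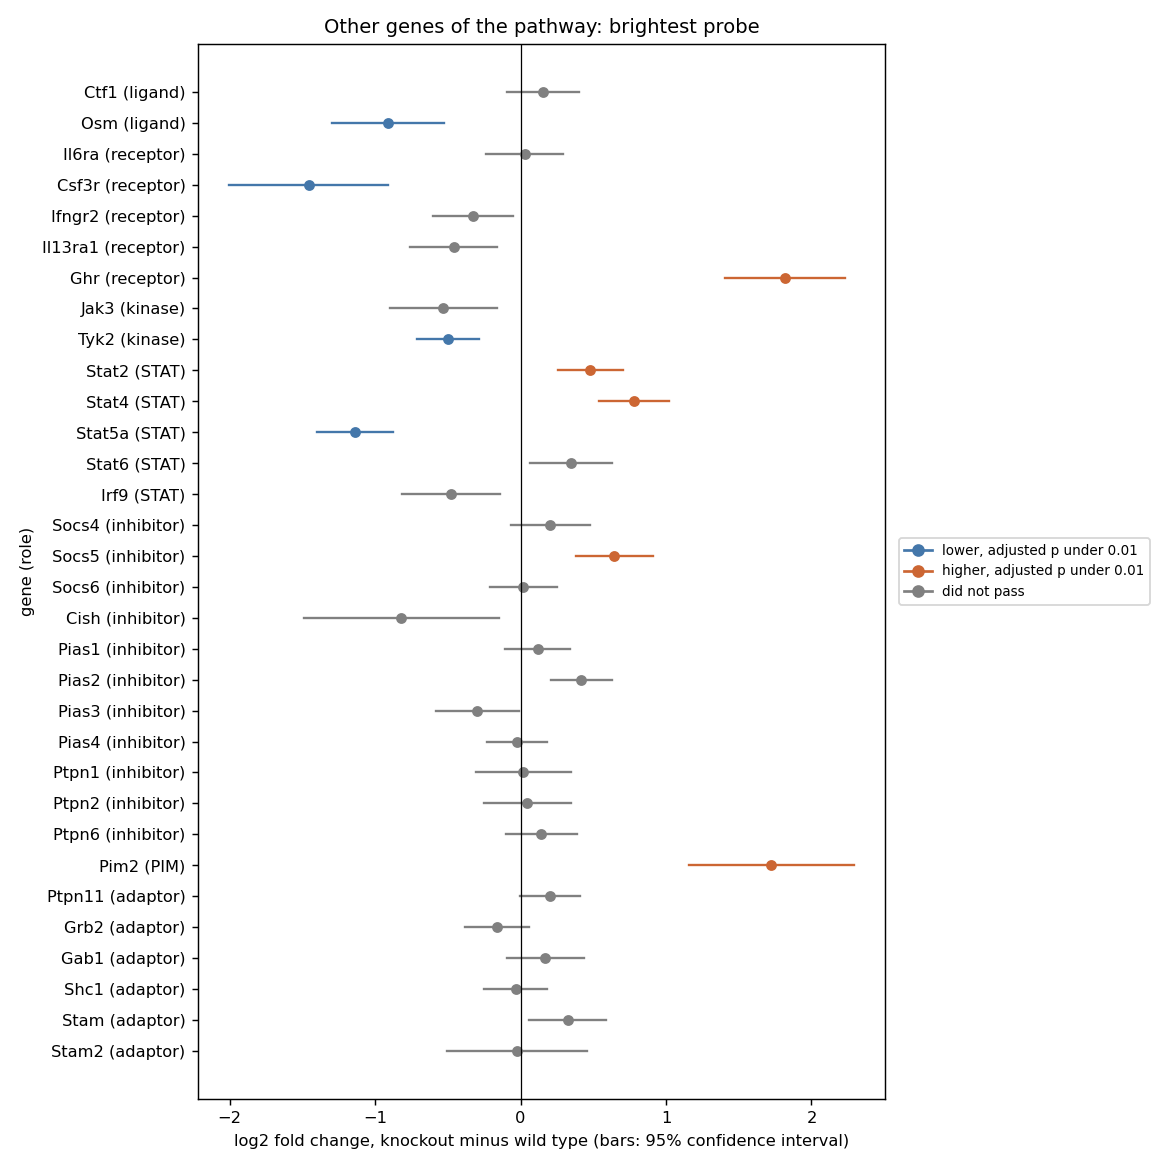
Log2 fold change, knockout minus wild type, of the 32 tested genes of the wider pathway list (y axis, with each gene's role), on the brightest probe, with 95% confidence intervals from limma. The 4 genes below and 5 above 0 in colour passed at an adjusted p under 0.01, *Csf3r* and *Ghr* lying farthest from 0.

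Among the ligands, *Osm*, which encodes oncostatin M, a gp130 cytokine, had signals of 10.97, 10.81 and 10.94 in wild-type and of 9.64, 9.99 and 10.36 in knockout cells. The knockout arrays were spread over a wider range, all below the wild-type arrays, and the fitted difference was -0.91 ± 0.17 on the log2 scale (limma, adjusted p = 0.00462). The call ended with no probe filter (adjusted p = 0.0297), with the median of chromosome 11 removed (adjusted p = 0.0105) and without the second knockout sample or any 1 wild-type sample (adjusted p of 0.0131 to 0.0192). Its second probe fell by 1.27 on the log2 scale (adjusted p = 5.91e-05). *Ctf1*, the cardiotrophin gene, gave 0.16 and did not pass. Among the receptors, *Csf3r*, the receptor of granulocyte colony-stimulating factor, was above background in wild-type cells only, with 6.10, 7.11 and 7.01 there and 5.12, 5.29 and 5.43 in the knockout. It was at least 1.99-fold lower (adjusted p = 0.00246), and did not pass without the first or second knockout or the third wild-type sample (adjusted p up to 0.0123) or with no probe filter (adjusted p = 0.0239). Its fitted log2 fold change of -1.46 shrank to -0.87 without background correction and to -0.49 in the authors' processed values. The growth hormone receptor gene *Ghr* showed the reverse pattern, with 5.38, 4.84 and 4.71 in wild-type and 6.58, 6.98 and 6.84 in knockout cells, which puts the knockout at least 2.21-fold above the wild type (limma, adjusted p = 0.000152). The fitted 1.82 shrank to 1.08 without background correction and to 0.62 in the authors' processed values, and *Ghr* passed in all 18 alternatives in which it was tested. For the interferon-γ receptor gene *Ifngr2* the probes disagreed, the brightest at -0.32 (adjusted p = 0.0831) and a dimmer one, above background on knockout arrays only, at least 1.51-fold higher (adjusted p = 0.000946).

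Of the remaining kinases, *Tyk2* was lower and *Jak3* did not pass, and of the 5 STAT-group genes tested 1 was lower, 2 were higher and 2 did not pass. *Tyk2* had signals of 8.60, 8.49 and 8.58 in wild-type and 8.08, 8.00 and 8.10 in knockout cells, -0.50 ± 0.09 on the log2 scale (limma, adjusted p = 0.00458), which did not pass when any 1 sample was left out (adjusted p up to 0.0256). *Jak3*, a kinase of lymphocyte cytokine receptors, gave -0.53 and did not pass (adjusted p = 0.0416). *Stat5a*, which carries prolactin and growth hormone signals, was on its brighter probe above background in wild-type cells only, with 6.37, 6.30 and 6.05 against 5.08, 5.02 and 5.21 in the knockout. It was at least 1.41-fold lower (adjusted p = 0.000158), and the fitted -1.14 was -0.32 with the authors' processed values. Its second probe, above background on 1 array of each genotype, was not tested. *Stat4*, known from interleukin-12 signalling, had signals of 6.43, 6.20 and 6.46 in wild-type and of 7.07, 7.19 and 7.19 in knockout cells, 0.78 ± 0.11 higher on the log2 scale (limma, adjusted p = 0.000856), or 0.36 with the authors' processed values, and its second probe was at least 1.67-fold higher. *Stat2*, which acts in interferon signalling, rose by 0.48 (adjusted p = 0.00756) but did not pass in 15 of 19 alternatives, among them each sample left out and the authors' processed values (0.17). *Stat6* gave 0.35 and *Irf9*, a DNA-binding factor of interferon signalling, -0.48, and neither passed (adjusted p = 0.0735 and 0.0453).

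Among inhibitors, 1 of the 11 tested passed, and of the 6 adaptor genes none on the brightest probe, next to 15.1% of all tested genes. *Socs5* was above background on the 3 knockout arrays only and was at least 1.34-fold higher (limma, adjusted p = 0.00392), and did not pass in 9 of 18 alternatives, among them each sample left out except the first knockout sample. Its fitted 0.65 was 0.20 with the authors' processed values. The third PIM kinase gene, the X-linked *Pim2*, opposed *Pim1* and *Pim3*. Its signals were 5.58, 5.38 and 5.10 on the wild-type arrays, none above background, and 6.49, 7.16 and 7.58 on the knockout arrays, all above background. *Pim2* was at least 2.68-fold higher (adjusted p = 0.00123), and its second probe also passed (adjusted p = 0.00526). Its fitted log2 fold change of 1.72 was 1.59 with the median of the X chromosome removed, 1.08 without background correction and 0.66 in the authors' processed values, and the call ended with no probe filter (adjusted p = 0.0157). Among the adaptors, a dimmer probe of *Ptpn11*, the SHP2 phosphatase gene, gave 0.44 (adjusted p = 0.00910) beside 0.21 on the brightest.

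Of 12 genes listed as STAT3 targets in ES cells, 9 were tested, 3 were lower and 6 did not pass, with a median log2 fold change of -0.37. Over all tested genes 15.1% were called, 8.40% lower, and the median was 0.024. *Bcl3*, which encodes a nuclear cofactor of NF-κB, had signals of 7.60, 7.76 and 7.76 in wild-type and of 6.65, 6.53 and 6.51 in knockout cells. The knockout arrays all lay well below the wild-type arrays, and the difference of -1.14 ± 0.10 (limma, adjusted p = 6.85e-05) kept its call in all 19 alternatives, at -0.60 with the authors' processed values. The transcription factor genes *Klf5* and *Tfcp2l1*, both of naive pluripotency, were lower by smaller amounts, at -0.66 (adjusted p = 0.00267) and -0.61 (adjusted p = 0.00324), and each lost its call when certain single samples were left out. *Gbx2*, a homeobox gene that sustains ES cells downstream of STAT3, had signals of 11.30, 11.58 and 11.34 in wild-type and of 10.04, 10.20 and 11.01 in knockout cells. The third knockout sample stood nearer the wild-type arrays, and the log2 fold change of -0.99 did not pass (adjusted p = 0.0129). *Gbx2* passed in 9 of 19 alternatives, among them no background correction (adjusted p = 0.00246), the authors' processed values (adjusted p = 0.00355) and that sample left out (-1.29, adjusted p = 0.000354). *Ier3*, an immediate early gene, gave 0.60 (adjusted p = 0.0111) and passed in 11 of 19 alternatives, *Cebpd* gave -0.37 (adjusted p = 0.0414), and *Klf4*, *Sall4* and *Mcl1* gave -0.21, -0.013 and 0.11. *Myc*, *Junb* and *Fgl2* were not tested.

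Over the 6 arrays, the genes whose brightest probes lay closest to *Stat3*, by the Euclidean distance between deviations from each probe's own mean, were *Hccs* (0.16), a haem lyase gene, *Ndufb10* (0.20), a gene of respiratory complex I, *Pim3* (0.20), the aldehyde oxidase gene *Aox3* (0.21) and *Stat5a* (0.21), of 8343 genes compared. All 5 were lower in the knockout, at log2 fold changes of -1.26 to -1.12, which follows from choosing them by their closeness to *Stat3*.

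**Figure D4:**
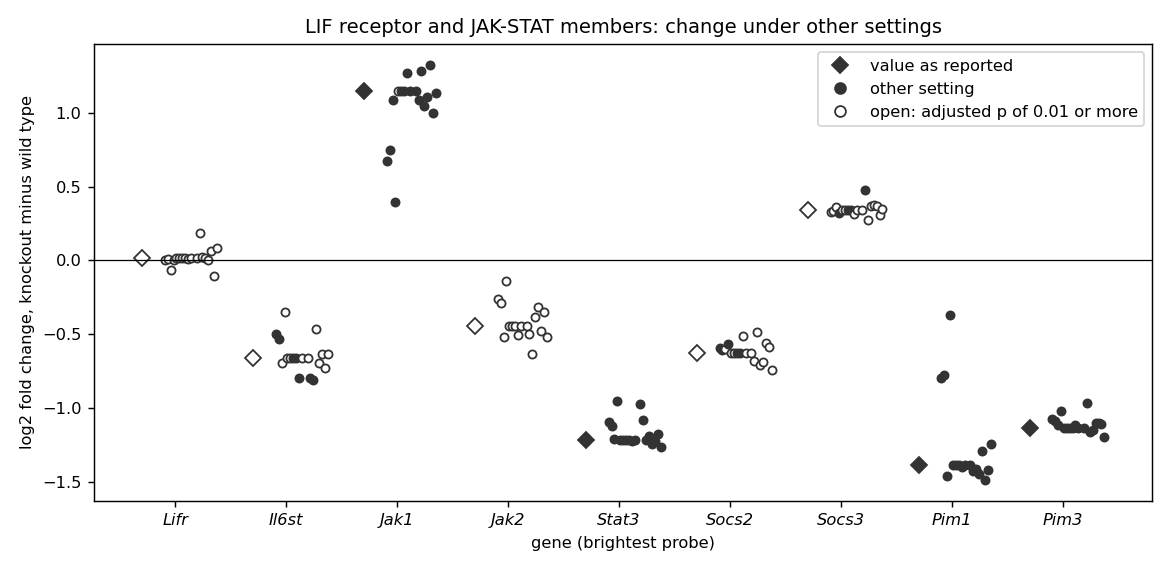
Log2 fold change of the 9 genes (x axis), as reported (diamonds) and under the alternative settings and left-out samples (circles), with open symbols at an adjusted p of 0.01 or more. *Stat3*, *Pim1* and *Pim3* stay below 0 and filled throughout, *Jak1* stays above 0 with 1 open circle, and *Lifr* crosses 0.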

How the data were processed

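RNA of 3 *Prdm14* knockout and 3 wild-type samples was measured on Illumina BeadChips. The authors deposited raw signal intensities of 45281 probes per array together with detection p-values against negative control beads. At a detection p under 0.01, 13456 to 14901 probes were above background on an array, and median signals ran from 56.8 to 80.6. The authors' processed values, deposited for 15961 probes, apparently as log2 values, and named with lumi in the submitters' processing notes, share a median of 8.18 on every array. Their settings are unstated here. They were used as an alternative.

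The intensities were background-corrected with the normal-exponential model of limma 3.58.1 (R 4.3.3), with controls inferred through the detection p-values and an offset of 16, then log2-transformed and quantile-normalized. Probes with a detection p under 0.01 on at least 3 of 6 arrays were fitted (14436) with lmFit and eBayes, with genotype as the only term, followed by Benjamini-Hochberg adjustment across all fitted probes. The fit was tested on simulated data. Where no array of a genotype was above background, the fold is given as a minimum: the brighter genotype's mean against, on each array of the other, the higher of the lowest signal detected and the probe's own signal.

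Symbols came from the platform annotation, updated through GRCm38.p6 identifiers (13829 of 13848 annotated probes), which names only probes detected on at least 1 array. Of the tested probes, 12582 had 1 symbol, 6 several and 1848 none. The brightest probe stood for a gene. Same-numbered samples did not deviate together (correlations of -0.12 to -0.03), so replicate number was used as a block only as an alternative. No probe had equal signals on any 2 arrays. No source used here says which BeadChip held which array.

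The members and gene lists were chosen with earlier results of these data known. The genes named are the 9 members, from the wider list its STAT and kinase genes and those that passed, all tested STAT3 targets, and the 5 genes nearest to *Stat3*. *Ifngr2* and *Ptpn11*, whose probes disagreed, *Ctf1*, *Cish*, *Osmr* and the marker and sex-linked genes were singled out once their values were known. Alternatives covered the background correction, offset, normalization, authors' values, probe filter, variance model, array weights, replicate block, threshold, averaging of probes, chromosome medians and each sample left out.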

Additional observations from a re-analysis of the deposited data

How the results depend on the processing

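The falls of *Stat3*, *Pim1* and *Pim3* passed under each alternative in which they were tested, as did the rise of *Jak1* except with no probe filter (1.15, adjusted p = 0.0150), where 45281 probes were tested. *Pim1* and *Jak1* could not be tested among the probes detected on all 6 arrays. *Lifr* turned to -0.063 under median scaling and ran from -0.11, without the second wild-type sample, to 0.082 with 1 sample left out. *Sall4* turned to 0.018 under median scaling and ran from -0.082 to 0.057 with 1 sample left out, positive without the third knockout or the second wild-type sample. *Ifngr2* turned to 0.39 with a gene's probes averaged. Of the members, 5 rather than 3 were lower with no background correction, an offset of 50, the eBayes trend, the eBayes trend and robust fit and a threshold of 0.05. As genes and as probes, 2 rather than 1 were higher with the authors' processed values, both trend fits, a threshold of 0.05 and chromosome medians removed, and 0 with no probe filter or all 6 arrays detected. With 1 sample left out, 3 to 4 member genes were lower and 1 was higher, and 4 to 5 member probes were lower.

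Of the wider list, 2 rather than 4 genes were lower with no probe filter and with all 6 arrays detected and 7 at a threshold of 0.05, and 3 rather than 5 were higher with median scaling, no probe filter and all 6 arrays detected. *Csf3r*, *Stat5a*, *Ghr*, *Socs5* and *Pim2* could not be tested among the probes detected on all 6 arrays, so their absence there is not a lost call. Of the STAT3 targets, 5 rather than 3 were lower at a threshold of 0.05. 1 rather than 0 was higher, *Ier3*, with no background correction, an offset of 50, the authors' processed values, all 6 arrays detected, the eBayes trend, the eBayes trend and robust fit, array weights, the replicate block, a threshold of 0.05 and averaged probes. With 1 sample left out, 1 to 3 wider genes were lower and 3 to 4 higher, and 1 to 3 targets were lower and 0 to 1 higher. The fewest were lower without the second knockout sample (1 wider gene and 1 target) and without the third wild-type sample (1 wider gene). *Klf5* and *Tfcp2l1* were not called without the second knockout sample (adjusted p = 0.0142 and 0.0183), *Klf5* not without the second wild-type and *Tfcp2l1* not without the third knockout or the third wild-type sample.

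With the replicate block, 3 members were lower and 1 was higher, as without it, and 925 probes were lower and 663 higher in all, against 1092 and 894. No sample of 6 correlated best with its own number. The block ended the calls of *Tyk2* (adjusted p = 0.0143) and *Stat2* (adjusted p = 0.0174). The cause of these shifts was not tested, and 3 arrays per genotype limit the precision.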
